A study of Mus musculus with 10 samples.

Results

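Arid1a sites without Brg1 were the autosomal Arid1a ChIP-seq summits of WT AB17 hepatocytes whose −log10 q-value was at least 3 and that had no Brg1 summit within 1 kb. The rule left 13052 sites, which were 58.7% of the 22217 autosomal Arid1a summits of at least 3 and 18.6% of all 70157 autosomal Arid1a summits. The other 9165 summits of at least 3 had a Brg1 summit within 1 kb and are called sites with Brg1 here. The sites were selected on the Arid1a and the Brg1 list, so the height of the Arid1a summits and the distance to Brg1 are given as a description. Ctcf, Rad21, H3K9me3, H3K27me3, the gene annotation and the DNA sequence were not used by the rule.

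SWI/SNF complexes slide and evict nucleosomes with the energy of ATP, and Brg1 (the product of Smarca4) is 1 of the alternative ATPase subunits that drive them. Arid1a is a large DNA-binding subunit found in the BAF form of the complex, which also exists with the ATPase Brm (the product of Smarca2). Ctcf is a DNA-binding protein that marks the borders of domains and the anchors of loops, and Rad21 is a subunit of cohesin, the ring that extrudes chromatin loops. H3K9me3 is the mark of constitutive heterochromatin and of many silenced repeats, and H3K27me3 is the mark set by Polycomb repressive complex 2.

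AB17 is a hepatocyte line from a C57BL/6 mouse with loxP sites around Arid1a (Arid1a fl/fl), made immortal by the SV40 large T antigen and carrying an activated H-Ras, and every group shares these alterations. WT cells (Arid1a fl/fl) had received the adenovirus Ad-GFP and KO cells (Arid1a-/-) the adenovirus Ad-Cre. Arid1a, Brg1, Ctcf and Rad21 were profiled in WT cells, and H3K9me3 and H3K27me3 in both genotypes, with 1 library per group, so the Arid1a antibody was not checked here against KO cells. No difference below has a replicate check, no p-value is given, and the read depth behind the lists is unknown. Shares carry 95% Wilson intervals, which hold counting error alone and treat neighbouring summits as independent. The autosomal part of the lists held 81227 Brg1, 89238 Ctcf and 100056 Rad21 summits, 141657 WT and 131430 KO H3K9me3 summits, and 108777 WT and 85640 KO H3K27me3 summits. Absence of Brg1 means absence of a called summit from its list, which a weak or missed Brg1 signal gives as well.

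The DNA under the highest sites is shown for its base composition, which was compared over all sites further on. The 5 sequences of sites without Brg1 are the 3 highest at promoters and the 2 highest elsewhere that lay outside repeats and UTRs, followed by the highest promoter site and the highest other site with Brg1. Each is 100 bases of the plus strand of mm10 (GRCm38), 5′ to 3′, around the summit, with CpG dinucleotides in capitals.
Mir1894 promoter site, chr17:35919552-35919651: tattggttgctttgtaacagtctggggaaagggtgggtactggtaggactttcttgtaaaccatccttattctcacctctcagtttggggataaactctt
Gm23971 promoter site, chr11:101645655-101645754: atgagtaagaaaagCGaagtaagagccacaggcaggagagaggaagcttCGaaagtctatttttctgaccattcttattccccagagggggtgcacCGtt
AI480526 promoter site, chr5:123140172-123140271: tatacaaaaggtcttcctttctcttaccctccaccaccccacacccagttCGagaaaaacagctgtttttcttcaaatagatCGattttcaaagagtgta
Mir21a downstream site, chr11:86581921-86582020: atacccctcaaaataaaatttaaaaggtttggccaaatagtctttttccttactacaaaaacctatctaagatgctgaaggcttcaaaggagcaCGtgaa
Hnrnpa2b1 site, chr6:51459774-51459873: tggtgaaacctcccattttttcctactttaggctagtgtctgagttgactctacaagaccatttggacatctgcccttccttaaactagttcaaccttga
Neat1 site with Brg1, chr19:5845049-5845148: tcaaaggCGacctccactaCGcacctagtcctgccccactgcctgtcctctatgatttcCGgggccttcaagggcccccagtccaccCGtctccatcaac
Hnrnpa3 site with Brg1, chr2:75669684-75669783: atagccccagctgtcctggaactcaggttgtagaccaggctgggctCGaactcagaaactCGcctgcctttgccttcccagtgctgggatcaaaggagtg
Among these 5 sites without Brg1, 2 windows held no CpG and the G and C content ran from 35.0% to 47%. The higher promoter site at H3f3b (11.6), with 64.5% G and C within 250 bp, was passed over for its UTR, so this range depends on that choice. The window at Neat1, a nuclear long non-coding RNA gene, held 4 CpG and had 61.0% G and C, and the window 7245 bp downstream of the Hnrnpa3 start had 57.0%.

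Most Arid1a sites without Brg1 were low summits. Their −log10 q-values ran from 3.01 to 30.2, with a median of 3.33 and a 90th percentile of 4.40, against a median of 3.71, a 90th percentile of 5.44 and a highest value of 66.2 at sites with Brg1. A single value, 3.33, was shared by 5100 sites (39.1%), and 87.1% lay under 4. Just inside the limit, 75 sites had 3.010, and just outside it, 31 Arid1a summits without Brg1 had 2.999. Nearest to the other limit, the closest site lay 1001 bp from Brg1 and 376 sites lay at most 100 bp past the limit, while 398 summits with Brg1 lay at most 100 bp inside it.

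The higher the Arid1a summit, the smaller was the share without Brg1. It was 64.2% (11363 of 17686) for summits between 3 and 4, 45% between 4 and 5, 28.1% between 5 and 7, and 12.9% (47 of 365) from 7 upwards. Of the sites without Brg1, 434 reached 5. The nearest Brg1 summit lay at a median of 5624 bp, between 1 and 2 kb at 2610 sites (20%), over 10 kb away at 4410 (33.8%) and over 100 kb away at 357, and the farthest site was 1514767 bp from Brg1.

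The highest Arid1a sites without Brg1 often stood beside a Brg1 summit that was just past the limit. Of the 10 highest, 7 had Brg1 between 1 and 2 kb away, 6 were promoters, 4 had a protein-coding gene as the nearest start, and 3 lay on chromosome 11. The highest of all, at position 86581971 of chromosome 11, had a −log10 q-value of 30.2 and lay 2187 bp downstream of the start of Mir21a, the gene of the growth-promoting microRNA miR-21. Its nearest Brg1 summit was 1736 bp away and had a −log10 q-value of 18.9, and it also had Ctcf (4.02), Rad21 (6.25) and WT H3K9me3 (2.03) summits within 1 kb. The second, with 15.4, lay in an intron of Ppp1r10, which encodes a regulatory subunit of protein phosphatase 1, 1713 bp downstream of the start of Mir1894, and a Brg1 summit of 19.4 stood 1265 bp away. The seventh site (9.62) also lay in an intron of Ppp1r10 and had a Ctcf summit of 21.5.

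The third site (14.0) lay 225 bp downstream of the start of the small nuclear RNA gene Gm23971, and the Brg1 summit 1038 bp away from it was weak (2.0). Hnrnpa2b1, which encodes an RNA-binding protein of splicing and RNA transport, had the fourth (12.4), 3360 bp downstream of its start. No summit of the other 6 lists lay within 1 kb there. H3f3b, which encodes the replication-independent histone H3.3, had the fifth (11.6) in its UTR, 49 bp downstream of a start, with a Ctcf summit of 66.4 and with H3K9me3 summits in WT (2.63) and KO (3.09) cells. Chaf1a, which encodes the large subunit of the histone chaperone CAF-1, had the tenth (8.73) in an intron, 3071 bp downstream of a start and 13419 bp from Brg1. The lincRNA AI480526 (9.68), the antisense gene Gm37634 (9.60) and Itprip (9.27) had the remaining ones, and Itprip had a Ctcf summit of 31.7. None of the 10 had an H3K27me3 summit in either genotype, and 1 had a KO H3K9me3 summit.

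At promoters of protein-coding genes, the highest sites after H3f3b and Itprip were those at Trp53rka (8.22), a p53-related kinase gene, at Rarg (7.97), which encodes a retinoic acid receptor, and at Phf10 (7.97), which encodes a subunit of the PBAF form of SWI/SNF. The site at Trp53rka lay in its coding exon, 89 bp from the start and 10144 bp from Brg1. The site 332 bp upstream of the Phf10 start, 6811 bp from Brg1, was 1 of the 6 sites with a summit of all 6 other lists within 1 kb. Ctcf was at 2.23 there, Rad21 at 5.12, H3K9me3 at 2.94 in WT and 3.8 in KO cells, and H3K27me3 at 1.37 and 3.38. Such sites were 0.0460% of those without Brg1, 0.0109% of those with Brg1 and 0.0214% of all autosomal Arid1a summits.

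More than 10 kb from any transcript start, the highest sites had values between 7.03 and 8.57. The highest of these lay between genes, 19882 bp from the pseudogene Gm47008 and 155704 bp from Brg1, in a window that was entirely soft-masked as repeat, with no summit of the other lists. The site 12886 bp downstream of the Ssr2 start (7.06) had Ctcf at 35.3, Rad21 at 8.85 and WT H3K9me3 at 5.09. The site 13706 bp upstream of Cd36, the fatty acid translocase gene, had 7.03 and only a WT H3K9me3 summit (2.64). The others were nearest to Gm47224 (7.87) and to Gm20500 in an intron of the actin-binding protein gene Shroom3 (7.03).

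Among sites of at least 5, those farthest from Brg1 lay in an intron of Itgbl1 (697225 bp), near Gm3500 (344640 bp), at Fndc3a (232776 bp), near Gm47008 and near Kif2b (120362 bp). The first 3 were on chromosome 14, which had the fewest Brg1 summits per Mb of the 19 autosomes. Of these 5, the site in the UTR at the Fndc3a start stood apart, with 76.2% G and C and a Rad21 summit of 8.76.

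Arid1a sites without Brg1 were far from transcript starts more often than those with Brg1. A promoter, meaning a summit within 2 kb of an annotated transcript start, held 2686 of 13052 sites, or 20.6% (95% Wilson interval 19.9 to 21.3), against 50.8% (49.8 to 51.9) of the sites with Brg1 and 25.8% of all autosomal Arid1a summits. This background holds both classes as well as the 47940 lower summits, whose share was 22.5%. Most of it, 48331 of 70157 summits, had no Brg1 summit within 1 kb. Introns held 43.4% of the sites without Brg1 and 28.5% of those with Brg1, intergenic DNA 31.9% and 16.8%, and exons outside promoters 4.12% and 3.83%. The median distance to a transcript start was 9126 bp, compared with 1873 bp with Brg1. Of the promoter sites without Brg1, 74.3% were nearest to a protein-coding start (84.1% with Brg1) and 6.37% to a processed pseudogene (1.18%). They lay upstream of the start at 1244 sites and downstream at 1442.

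The same order was found at equal summit height. Among summits between 3 and 4, promoters held 19.2% (18.4 to 19.9) of sites without Brg1 and 44.0% (42.8 to 45.2) of those with Brg1. From 7 upwards the shares were 63.8% (49.5 to 76.0) of 47 and 86.2% (81.9 to 89.5) of 318. Among the summits of exactly the commonest value, they were 15% and 33.8%.

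The sequence differed in the same way. The G and C content within 250 bp of the summit had a median of 42.3% at sites without Brg1 and 46.9% with Brg1, and the observed-to-expected ratio of CpG had medians of 0.184 and 0.280. All autosomal Arid1a summits, most of them also without Brg1, had medians of 42.9% and 0.195, close to the sites without Brg1. At promoters the gap was wider, with 46.5% against 56.1% for G and C and 0.267 against 0.607 for CpG, whereas outside promoters the medians were 41.5% and 42.5%. Promoter sites without Brg1 lay a median of 653 bp from a start and those with Brg1 282 bp. Position within promoters was therefore not equal in the promoter comparisons here and below. More than 50% of the window was soft-masked as repeat at 2307 sites without Brg1 (17.7%) and at 7.74% of those with Brg1.

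Short motif letters were searched on both strands up to 100 bp from the summit, and again at positions moved by 10 kb. Outside promoters, the AP-1 letters TGANTCA were found at 6.98% (6.51 to 7.49) of sites without Brg1 and at 9.12% (8.31 to 10) of those with Brg1, and at 5.94% and 5.66% of the moved positions. With promoters included, 6.57% of sites without Brg1, 6.70% of those with Brg1 and 6.56% of all autosomal Arid1a summits held them. At promoters, the Sp1 letters GGGCGG were found at 13.6% of sites without Brg1 and 29.4% of those with Brg1, and the Ets letters CCGGAAG at 2.46% and 5.77%. Among all autosomal Arid1a summits, promoter or not, the shares were 6.15% and 1.29%. The Sp1 and Ets letters consist mostly of G and C, and the part of base composition in these shares was not tested.

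Ctcf and Rad21 summits were less frequent at sites without Brg1 than at sites with it. Ctcf lay within 1 kb of 1992 sites, or 15.3% (14.7 to 15.9), against 37.2% (36.2 to 38.1) with Brg1 and 19.3% of all Arid1a summits. Rad21 lay within 1 kb of 2417 sites, or 18.5% (17.9 to 19.2), against 51.3% (50.3 to 52.4) with Brg1 and 25.0% of all Arid1a summits. Both were found at 9.45% of sites without Brg1 and 28.4% of those with Brg1, Rad21 alone at 9.07% and 22.9%, and Ctcf alone at 5.82% and 8.72%. The share with neither was 75.7% (74.9 to 76.4) against 39.9% (38.9 to 41.0).

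**Figure D1:**
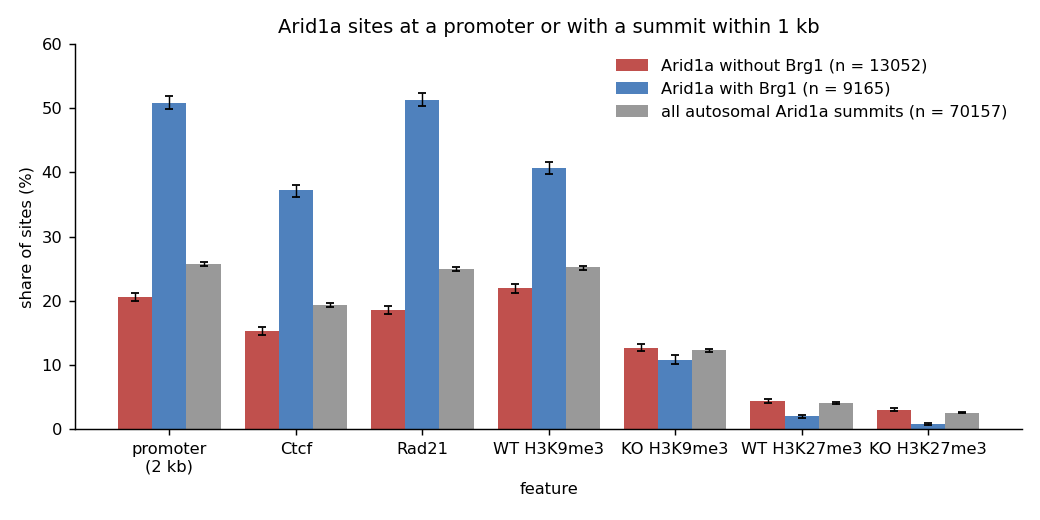
Share of Arid1a sites (%) at a promoter or with a summit of each list within 1 kb, for sites without Brg1 (red), sites with Brg1 (blue) and all autosomal Arid1a summits (grey), with 95% Wilson intervals. The promoter, Ctcf, Rad21 and WT H3K9me3 bars are lower without Brg1, and both H3K27me3 bars are higher (4.41% against 2.0% in WT and 3.06% against 0.818% in KO cells).

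The gap was present at promoters and outside them. At promoters, Rad21 was found at 38.2% (36.3 to 40) of sites without Brg1 and 67.7% (66.3 to 69.0) with Brg1, and Ctcf at 30% and 51.3%. The distance to the start was not matched, with medians of 653 bp and 282 bp. Outside promoters, Rad21 was found at 13.4% (12.8 to 14.1) and 34.5% (33.1 to 35.9), and Ctcf at 11.5% and 22.5%. Where G and C made up at least 60% of the window, the classes were closer, with Rad21 at 75.9% of 522 sites without Brg1 and 81.8% of 1962 with Brg1. Under 40% G and C, Rad21 was found at 7.56% and 19.6%.

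**Figure D2:**
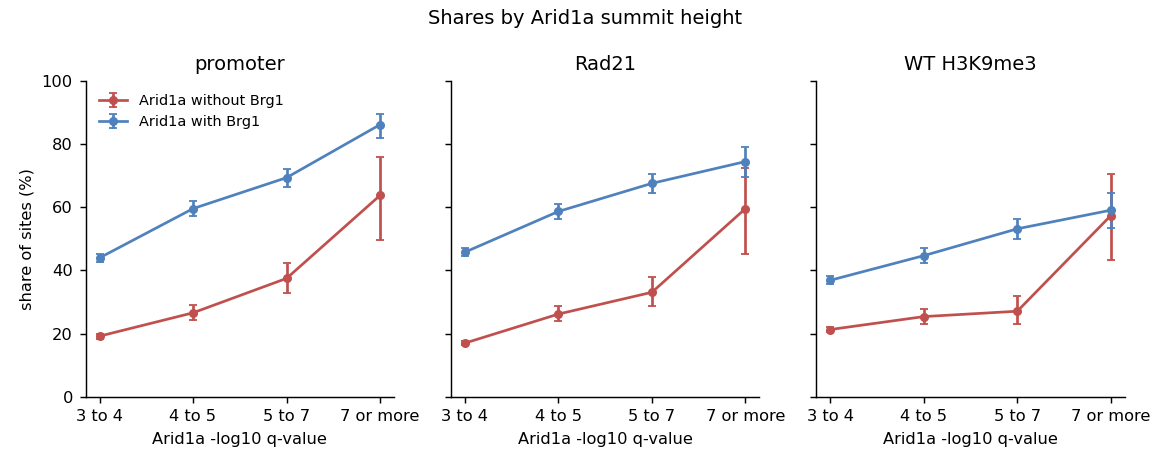
Share of sites (%) at a promoter, with Rad21 and with WT H3K9me3, by the −log10 q-value of the Arid1a summit, for sites without Brg1 (red) and with Brg1 (blue), with 95% Wilson intervals. All 3 shares are larger at higher summits, the red points lie under the blue ones, and from 7 upwards the intervals for Rad21 (59.6% and 74.5%) and for WT H3K9me3 (57.4% and 59.1%) overlap.

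Summits of both proteins were still denser at the sites than around them. Ctcf had 0.0851 summits per kb within 1 kb of sites without Brg1 and 0.0619 between 5 and 20 kb away, a ratio of 1.37, compared with 2.32 at sites with Brg1. The ratio for Rad21 was 1.48 without Brg1 and 2.98 with it. Outside promoters the ratios without Brg1 were 1.16 for Ctcf and 1.14 for Rad21, and at promoters 1.90 and 2.38.

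**Figure D3:**
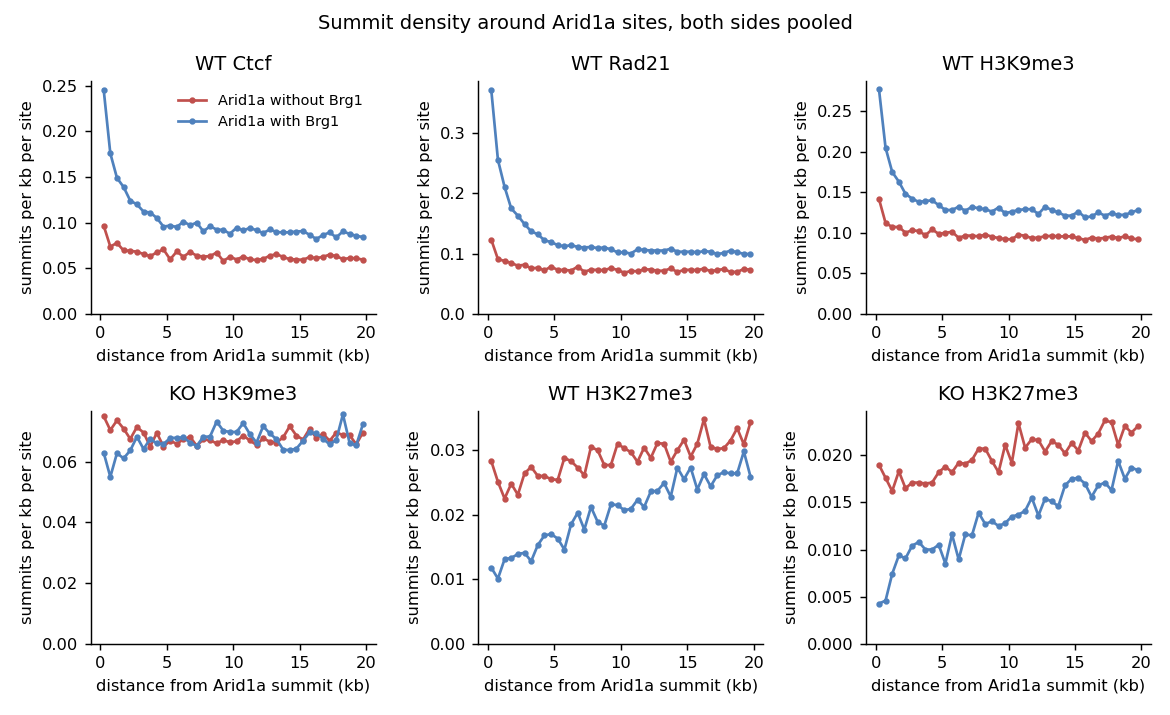
Summits per kb per site against the distance from the Arid1a summit (kb, both sides pooled, bins of 0.5 kb), for sites without Brg1 (red) and with Brg1 (blue), in 6 lists. In the innermost bin Rad21 stood at 0.123 and 0.372 summits per kb, and WT H3K27me3 at 0.0283 and 0.0118.

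Where Ctcf was present, its summits were of similar height in both classes. The highest Ctcf summit near a site had a median −log10 q-value of 4.53 without Brg1 and 4.83 with Brg1, and reached 10 at 31.6% and 33.3% of these sites. For Rad21 the medians were 3.34 and 4.01. The highest Ctcf summits stood near a site between Rny3 and Pdia4 (176), at Myrf (173), a gene of a membrane-bound transcription factor, and at Gm29719 (136). The highest Rad21 summits stood 1188 bp upstream of Gadd45b (96.3), a stress-induced gene, in the coding exon of Marcks (82.2), a membrane-bound substrate of protein kinase C, and in an intron of Alg14 (78.7). At these 3 sites the Arid1a values were between 3.87 and 4.92, and Ctcf was at 127, 102 and 78.8.

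H3K9me3 in WT cells was also less frequent at sites without Brg1. A WT summit lay within 1 kb of 2874 sites, or 22.0% (21.3 to 22.7), against 40.7% (39.7 to 41.7) with Brg1 and 25.2% of all Arid1a summits. Most of these H3K9me3 summits were low. The highest near a site had a median −log10 q-value of 2.64 in both classes. With WT H3K9me3 summits of at least 5, the shares were 1.19% without Brg1 and 1.99% with Brg1. In KO cells a summit lay within 1 kb of 1659 sites, or 12.7% (12.2 to 13.3), against 10.8% (10.2 to 11.5) with Brg1 and 12.3% of all Arid1a summits. The KO difference moved with the repeat content, whose part was not otherwise tested. In windows at most 50% soft-masked the KO shares were 9.67% without Brg1 and 9.64% with Brg1, and in windows with more masking they were 26.9% and 25.1%.

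The number of sites with H3K9me3 was smaller in KO than in WT cells. The ratio of KO to WT sites was 0.577 without Brg1 and 0.266 with Brg1, compared with 0.487 for all autosomal Arid1a summits and 0.928 for the 2 whole lists. The surroundings also held fewer KO than WT summits, with 26483 and 37114 between 5 and 20 kb from sites without Brg1. Within 1 kb of these sites there were 1898 and 3312. For sites with Brg1 the counts were 18782 and 34649 in the surroundings, and 1081 and 4427 within 1 kb. The part of the surroundings in the ratios was not tested. A WT summit alone was found at 2174 sites without Brg1 (16.7%), a KO summit alone at 959 (7.35%) and both at 700 (5.36%). These shares were near those of all autosomal Arid1a summits, which were 19.9%, 7.0% and 5.26%. In windows with more than 50% masking the ratio without Brg1 was 0.944 (620 KO and 657 WT sites), and in the other windows it was 0.469 (1039 and 2217). With Brg1 the corresponding ratios were 0.640 and 0.236. At promoters without Brg1 the ratio was 0.297, and elsewhere 0.688. Depth, antibody efficiency and input of the WT and KO libraries cannot be told apart from genotype here, for either mark. The series labels 1 input per genotype, so the Arid1a list and the WT mark lists had the same input available and the KO lists another.

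Most of the highest H3K9me3 summits near sites without Brg1 were at the start of chromosome 9. There, 6 sites between positions 3008022 and 3033839, with Arid1a values from 3.22 to 4.99, lay among the predicted genes Gm10719, Gm10721, Gm10717 and Gm17535 in windows mostly soft-masked as repeat. All 6 had a WT H3K9me3 summit, 4 had a KO summit and none had Ctcf. WT values reached 23.6 near Gm17535 and 22.4 near Gm10719, and KO values 29.7 and 20.4 near Gm10717 and 23.4 near Gm10721. Read mapping to such repeats is uncertain. The site between Rny3 and Pdia4 had the highest WT value (25.8, with 16.2 in KO cells) in a window with 64.7% G and C.

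H3K27me3 was the feature more frequent without Brg1 in both genotypes. In WT cells a summit lay within 1 kb of 575 sites, or 4.41% (4.07 to 4.77), against 2.0% (1.73 to 2.30) with Brg1 and 4.08% of all Arid1a summits. In KO cells a summit lay within 1 kb of 400 sites, or 3.06% (2.78 to 3.37), against 0.818% (0.653 to 1.02) with Brg1 and 2.60% of all Arid1a summits. The sites without Brg1 were close to all Arid1a summits, most of which (48331 of 70157) also had no Brg1 summit within 1 kb. Closeness to that background is partly built in, so it does not show which class departs. Around the sites without Brg1, the density within 1 kb was 0.892 of that between 5 and 20 kb in WT cells and 0.872 in KO cells, compared with 0.480 and 0.301 with Brg1.

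The difference in H3K27me3 was present in promoters and outside them. At promoters, WT H3K27me3 was found at 6.25% (5.4 to 7.23) of sites without Brg1 and 2.70% (2.28 to 3.21) with Brg1, and elsewhere at 3.93% (3.57 to 4.32) and 1.26% (0.978 to 1.64). At sites with at least 60% G and C it was found at 9.96% and 4.13%. From an Arid1a value of 5 to 7, the intervals overlapped, with 3.10% (1.78 to 5.34) and 2.83% (1.97 to 4.07).

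Both genotypes had H3K27me3 at 277 sites without Brg1, WT cells alone at 298 and KO cells alone at 123. The shares were 2.12%, 2.28% and 0.942%, near the 1.77%, 2.31% and 0.830% of all autosomal Arid1a summits. The ratio of KO to WT sites was 0.696 without Brg1 and 0.410 with Brg1, compared with 0.636 for all autosomal Arid1a summits and 0.787 for the whole lists. The surroundings also held fewer KO than WT summits, with 8221 and 11719 between 5 and 20 kb from sites without Brg1. Within 1 kb of these sites there were 478 and 697. For sites with Brg1 the counts were 4042 and 6276 in the surroundings, and 81 and 201 within 1 kb. Of the 277 sites, 30% were promoters, 25.3% had Ctcf and 27.8% had Rad21. Of the 47 sites with Brg1 that had the mark in both genotypes, 68.1% were promoters, 55.3% had Ctcf and 66% had Rad21.

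**Figure D4:**
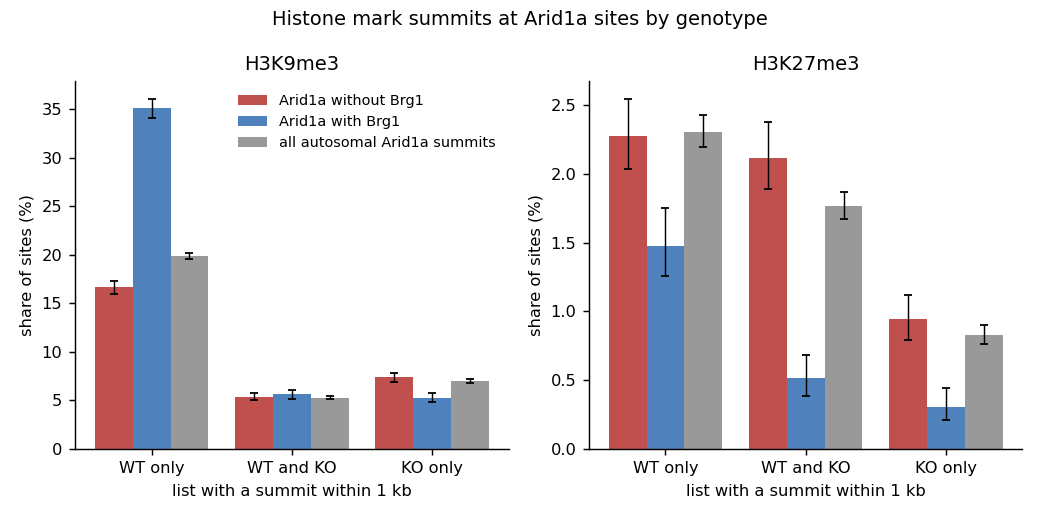
Share of Arid1a sites (%) with a summit within 1 kb in the WT list alone, in both lists and in the KO list alone, for H3K9me3 and H3K27me3, with 95% Wilson intervals and colours for sites without Brg1 (red), with Brg1 (blue) and all autosomal Arid1a summits (grey). For H3K9me3 the classes differ mainly in the WT list alone (16.7% and 35.1%), and for H3K27me3 the largest gap is in both lists (2.12% and 0.513%).

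The highest H3K27me3 summits near sites without Brg1 were at Grin1os, Nell2, Adora2a, Rnf220 and Vwa5b2. A site at Grin1os, in the UTR of the NMDA receptor subunit gene Grin1, had 38.0 in WT and 21.6 in KO cells, with no Ctcf, Rad21 or H3K9me3 summit and with Brg1 19637 bp away. Nell2, which encodes a secreted neural protein, had 19 in WT and 21.3 in KO cells together with a Rad21 summit of 9.66. Adora2a, an adenosine receptor gene, had 20.6 in WT and 19 in KO cells. Rnf220 (34.9) and Vwa5b2 (32.8) had a high WT summit and no KO summit within 1 kb. The Arid1a values of these 5 sites were between 3.23 and 3.99.

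Within the sites without Brg1, the features changed with the distance to the nearest Brg1 summit. From 1 to 2 kb away to over 50 kb away, the promoter share went from 32.9% (31.1 to 34.7) of 2610 sites to 11.8% (9.80 to 14.1) of 875, the Rad21 share from 29.0% to 7.09% and the Ctcf share from 23.0% to 6.29%. WT H3K9me3 went from 29.7% to 12.8%, and KO H3K9me3 was between 11.2% and 13.8% in all 5 distance classes. H3K27me3 had the opposite order, from 2.03% (1.56 to 2.65) to 10.7% (8.86 to 13.0) in WT cells and from 1.3% (0.934 to 1.81) to 9.14% (7.41 to 11.2) in KO cells. The summit density around the sites was not set beside these classes, so whether the order is regional or particular to the sites was not tested. The median G and C content was 43.1% in the nearest class and 41.1% in the farthest, the soft-masked share of summit bases 22.8% and 39.4%, and the median Arid1a value 3.33 in both.

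**Figure D5:**
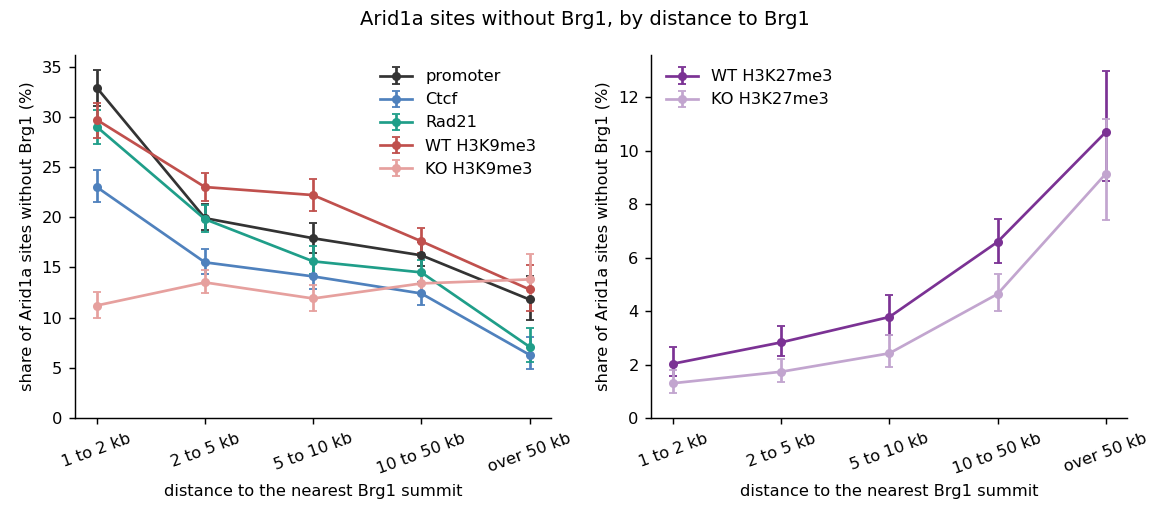
Share of Arid1a sites without Brg1 (%) by the distance to the nearest Brg1 summit in 5 classes, with 95% Wilson intervals, for promoters, Ctcf, Rad21 and H3K9me3 (left) and H3K27me3 (right). Rad21 stands at 29.0% in the nearest class and 7.09% in the farthest, and WT H3K27me3 at 2.03% and 10.7%.

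The sites were spread unevenly over the chromosomes. They numbered between 0.849 per Mb on chromosome 14 and 11.3 per Mb on chromosome 10, and chromosomes 14, 10 and 19 had 4.95, 61.5 and 67.3 Brg1 summits per Mb. The share of Arid1a summits of at least 3 without Brg1 was between 50.9% on chromosome 19 and 70.2% on chromosome 14. The density of Brg1 summits thus moved with that of the sites from chromosome to chromosome, and its part was not tested. Copy number in this line was not analysed here and cannot be told apart from a density of sites. Neighbouring sites lay a median of 32567 bp apart, and 1589 (12.2%) had another site within 5 kb. The largest group held 6 sites within 9.65 kb of chromosome 10, at Rps12, which encodes a protein of the small ribosomal subunit, and its intronic Snora33, with values from 3.22 to 5.32. Counted over the gene body and 10 kb on each side, Gm20388, a predicted gene model of 4435 kb, had 43 sites, Nkain2 had 21, Pcdh7 and Utrn had 17 each and Lrrc4c had 16, as did Cacna2d1 and Ptprk. Utrn encodes the dystrophin homologue utrophin, and Pcdh7 a protocadherin. These are long genes, between 415 and 1313 kb without Gm20388.

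Of the 20807 autosomal protein-coding genes, 2021 (9.71%) had an Arid1a site without Brg1 within 2 kb of a start, and 3769 (18.1%) had a site with Brg1. Both kinds were found at 585 genes, so that 1436 genes had a site without Brg1 alone. The gene lists below were set against these shares with no test.

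Actin cytoskeleton genes had a site without Brg1 at 7 of 19 (36.8%), and 6 of the 7 also had a site with Brg1. The highest were at Tln1 (6.13), which encodes the integrin-binding protein talin, at Cnn3 (5.01), a calponin gene, and at Myh9 (4.83), which encodes non-muscle myosin heavy chain, with 3 sites at each. Pxn (4.78), which encodes the focal adhesion protein paxillin, had no site with Brg1 within 2 kb of a start. Among genes of matrix and of epithelial-mesenchymal transition, 5 had both a site without and a site with Brg1, and 6 of 25 (24.0%) had a site without Brg1. The 6 included the fibrillar collagen genes Col1a2 (5.48), Col1a1 (4.80) and Col3a1 (3.33), the transcription factor gene Snai2 (4.91) and the N-cadherin gene Cdh2 (4.70). Both lists also had more sites with Brg1 than the average gene, at 73.7% and 60%. An Arid1a summit of any height lay within 2 kb of a start at 18 of the 19 and 22 of the 25 genes. Among all 20807 autosomal protein-coding genes this held for 9133.

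Ribosomal protein genes had a site at 15 of 75 (20%), with Rpl4 (7.97), Rps27a (6.19) and Rps12 (5.32) highest, and 65.3% of the list had a site with Brg1. Replication-dependent histone genes had a site at 8 of 67 (11.9%), where 3 Hist2 genes shared 1 summit and 3 Hist1 genes shared another, against 73.1% with Brg1. An Arid1a summit of any height lay within 2 kb of a start at 67 of the 75 ribosomal protein genes and 65 of the 67 histone genes. Cell cycle and p53 genes had a site at 3 of 19, Gadd45b (4.92), the D-type cyclin gene Ccnd2 (3.56) and the E-type cyclin gene Ccne1 (3.56). Of these, Gadd45b also had a site with Brg1, as did 26.3% of that list. Among 16 AP-1 and immediate early genes, Fosl2 (5.09) and Jund (3.63) had a site without Brg1, and 10 had a site with Brg1. Among 15 Hippo pathway and Yap target genes, Axl (4.51) and Amotl2 (3.19) had a site without Brg1, and 9 had a site with it. Fosl2, Jund, Axl and Amotl2 all had both kinds of site.

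Among the 28 SWI/SNF subunit genes, Phf10 and Smarca2 (3.22), the gene of the alternative ATPase Brm, had a site without Brg1 (7.14%). A site with Brg1 was found at 42.9% of this list, Smarca2 among them. Stag1 (3.33), a cohesin subunit gene, was 1 of 11 cohesin and Ctcf genes, and it also had a site with Brg1, as did 54.5% of that list. Of 17 hepatocyte transcription factor genes, Gata6 (3.33) and the bile acid receptor gene Nr1h4 (3.01) had a site without Brg1 (11.8%), and 2 had a site with Brg1, Gata6 among them. None of the 20 plasma protein genes had a site without Brg1, and 2 had a site with it. Of the 6 genes singled out by the study none had a site without Brg1 and 1 had a site with it. Peak lists of these factors do not measure expression, so the hepatocyte label itself was not checked here.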

How the data were processed

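AB17 cells were profiled by ChIP-seq. By the study's methods, reads were mapped by the authors to mm10 (bowtie2), filtered (SAMtools, Picard) and passed to MACS2 with its defaults, each library against its input. Versions were not given in the sources used here. Each of the 8 deposited lists gave 1 summit per peak with a −log10 q-value from the authors' peak calling. The unit was read from the values, none under 1.30. It grows with depth, which the lists do not give. The 2 input samples were not analysed here. The members and gene lists were chosen with earlier results of these data known.

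Autosomal summits were matched within 1 kb and annotated with GENCODE vM21 in Python 3.11.15 with numpy 2.4.6, pandas 2.3.3 and scipy 1.17.1. No summit lay beyond a GRCm38 chromosome end (0 cases). Counting was tested on simulated lists. Named sites were the 10 highest, the 5 highest at coding promoters, the 5 highest over 10 kb from a start, the 5 farthest from Brg1 of at least 5, the 3 with the highest summit of each other list, the 5 genes with most sites, and up to 6 listed genes per list. Sequences that overlapped a UTR were passed over for the next site. Some listed genes and 1 sequence are not reported here. Alternatives changed the limits for Brg1 and partner summits, the minimum values, the promoter definition, chromosome 10 and the sites shared by all 6 lists. A further alternative, leaving out windows more than 50% soft-masked, was chosen after seeing the data.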

Additional observations from a re-analysis of the deposited data

Results flagged for a closer look

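Signal outside the autosomes was not part of the comparisons. By the same rule, 36 Arid1a summits of at least 3 without Brg1 lay on chromosome X, with a highest −log10 q-value of 14.1, 6 lay on chromosome Y (highest 4.27), and 1 lay on the mitochondrial chromosome (3.18), which had 0 Brg1 summits. No control library for Arid1a was analysed here, so these counts stand as values. Groups held 1 library each, so no sample could be compared with others of its group.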

How the results depend on the processing

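No paired analysis was possible because each group was a single library and no test was made. The order of sites without and with Brg1 was the same in all 62 recomputed shares, of which the closest was KO H3K9me3 without repeat-rich windows (9.67% and 9.64%). Of 69 alternative values, 24 stayed within the interval of the value above, or for the number of sites within 1.5 times, and 45 moved further. In the order promoter, Ctcf, Rad21, WT H3K9me3, WT H3K27me3 and KO H3K27me3, a Brg1 limit of 500 bp gave 24.7%, 18.3%, 23.1%, 24.8%, 3.94% and 2.69% of sites without Brg1, and a limit of 2 kb gave 17.5%, 13.3%, 15.9%, 20.1%, 5.0% and 3.51%. With no minimum beyond the authors' threshold, 48331 sites remained by the rule, with shares of 18.1%, 13.5%, 16.3%, 20.2% and 4.96% for the first 5. With an Arid1a minimum of 5, 434 sites gave 40.3%, 29.3%, 35.9%, 30.4%, 3.23% and 2.07%, and 13.6% for KO H3K9me3. At this minimum the H3K27me3 shares with Brg1 were 2.83% in WT and 0.842% in KO cells. In the order Ctcf, Rad21, WT and KO H3K9me3, WT and KO H3K27me3, partner summits within 500 bp gave 9.45%, 12%, 13.8%, 7.26%, 2.77% and 1.84%. Partner summits of at least 5 gave 7.10%, 5.68%, 1.19%, 0.858%, 0.774% and 0.582%, and with Brg1 18.4%, 18.7%, 1.99%, 0.633%, 0.327% and 0.229%. Promoters within 1 kb of a coding gene start held 5.99% of sites (28.8% with Brg1), and without chromosome 10 promoters held 21.5%. Without repeat-rich windows, a choice made after seeing the data, the shares were 22.7% for promoters, 16.2% for Ctcf, 20.2% for Rad21 and 20.6% for WT H3K9me3. The cause of these changes was not tested. The number of summits in each list depends on its unknown depth, so a site without a summit may hold signal under the calling threshold, and narrow peak calling splits the broad marks into summits of uncertain position.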
